A study of Mus musculus with 24 samples.

Results

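The genes of oxidative phosphorylation were followed in sorted epithelial cells along the mouse gut. Members were taken by symbol among protein-coding genes: every subunit encoded by the mitochondrial genome (symbols starting mt-), and the nuclear families Nduf, Sdh, Uqcr, Cox4 to Cox8 and Atp5. The annotation held 107 such genes and 106 of them were among the 53465 genes counted, namely 13 mitochondrial and 93 nuclear. Of these, 94 had enough reads to be tested (7 mitochondrial and 87 nuclear) among 15185 genes tested in all. All groups came from transgenic mice in which *Guca2a* (guanylin) sequences on a bacterial artificial chromosome drive the fluorescent protein Venus, and the mice are 1 line with a single founder. Cells from the duodenum, jejunum, ileum and colon (colon together with rectum) were sorted into Venus-positive and Venus-negative cells after dead cells, debris and CD45+ immune cells were gated out, and each of the 8 groups has 3 libraries. The labels give GFP positive or GFP negative for the sort and no age or sex. The question was where positive and negative cells differ in nuclear and in mitochondrial subunit transcripts, with libraries scaled on nuclear genes.

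Oxidative phosphorylation passes electrons from NADH and succinate to oxygen through complexes I to IV of the inner mitochondrial membrane, and ATP synthase (complex V) uses the resulting proton gradient. The complexes I, III, IV and V are built from subunits of both genomes, whereas complex II (succinate dehydrogenase) is wholly nuclear. The mitochondrial subunits form the hydrophobic core, most nuclear subunits surround it, and the Ndufaf proteins are assembly factors that are not part of the finished complex I.

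Total gene counts ran from 7458620 to 23063100 per library, of which 2583420 to 7434140 fell on nuclear genes. The mitochondrial genome took 32.3% to 80.7% of the counts, almost all of it on the ribosomal RNAs *mt-Rnr1* and *mt-Rnr2*, and the mitochondrial subunit genes took 0.521% to 2.52%. Levels below are CPM, counts scaled to an equal total of nuclear counts, with the trimmed mean of M-values (TMM) factors from nuclear genes (0.616 to 1.58). *Guca2a* was higher in positive cells of each region, with log2 fold changes of 5.83, 2.82, 2.96 and 2.61 from duodenum to colon. In every group the library numbered 3 in accession order had the lowest ratio of mitochondrial to nuclear subunit counts of the 3. The design names 3 mice, but the labels do not say which library came from which, so the tests compare libraries as unpaired.

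Of the 13 mitochondrial subunit genes, 6 could not be measured in this table. *mt-Co2*, *mt-Co3*, *mt-Atp8* and *mt-Nd4l* had 0 counts over all 24 libraries, *mt-Atp6* had 4 and *mt-Nd3* had 73, beside 1999190 for *mt-Co1*, the catalytic subunit of complex IV, and 1516000 for *mt-Cytb*, the mitochondrial subunit of complex III. Reads were 50 bases long and only uniquely aligned reads were counted. Each 50-base window of the genes was therefore searched in the annotated transcripts of all other genes. Pseudogenes on chromosome 1 that are nuclear copies of mitochondrial DNA held 100% of the windows of *mt-Co2*, 99.9% of *mt-Co3*, 99.5% of *mt-Atp6*, 98.8% of *mt-Nd4l* and 98.0% of *mt-Nd3*. The copies hold 62.2% of the windows of *mt-Nd4* and 51.1% of *mt-Co1*, so their counts come from the remaining stretches. Of *mt-Nd2* 8.19% of windows were shared, with a pseudogene on chromosome 2, and of *mt-Nd5* 7.61%, most of them with one on chromosome 13, whereas *mt-Nd1*, *mt-Cytb* and *mt-Nd6* shared none. *mt-Atp8* shared no window with an annotated transcript and still had no count. The windows at the middle of *mt-Co3*, *mt-Co2*, *mt-Atp6* and *mt-Cytb*, shown because the first 3 occur again in the nuclear genome, read 5′ to 3′ (GENCODE M21 transcripts, GRCm38, plus strand):
mt-Co3: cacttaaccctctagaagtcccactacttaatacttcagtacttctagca
mt-Co2: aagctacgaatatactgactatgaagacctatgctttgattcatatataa
mt-Atp6: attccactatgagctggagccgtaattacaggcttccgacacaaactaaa
mt-Cytb: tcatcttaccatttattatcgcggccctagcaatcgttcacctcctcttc
They lie at chrM:8974-9023, chrM:7330-7379, chrM:8242-8291 and chrM:14692-14741. The first recurs in *Gm28437* at chr1:24613555-24613604, the second in *Gm28661* at chr1:24615199-24615248 and the third in *Gm10925* at chr1:24614287-24614336, while the *mt-Cytb* window was in 0 other annotated genes. The *mt-Co2* window was in 2 other annotated genes, *Gm28661* among them. The copies themselves had few counts, 112 for *Gm28437*, 132 for *Gm28661* and 126 for *Gm10925* in total, and the copies of the other genes between 18 and 270, except *Gm4076*, which shares windows with *mt-Nd5*, at 2220 (3 to 237 per library). Summed mitochondrial levels therefore rest on 7 genes, and the levels of the other 6, at or near 0, are no measure of their RNA.

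**Figure D1:**
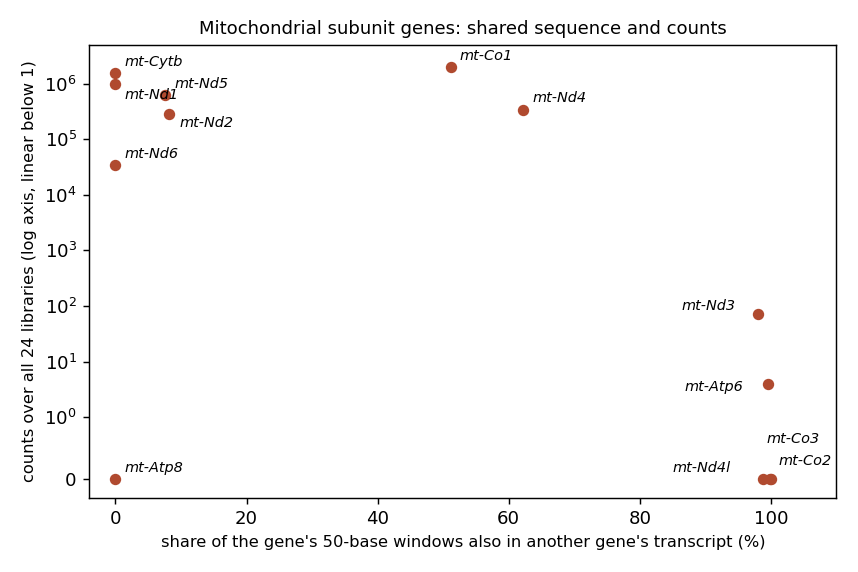
Counts over all 24 libraries (y axis, logarithmic above 1) against the share of each mitochondrial subunit gene's 50-base windows found in another gene's transcript (x axis, percent); each point is a gene. The 5 genes at the right, from 98.0% to 100%, lie between 0 and 73 counts, as does *mt-Atp8* at 0% shared, and the other 7 between 34541 and 1999190.

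Summed over the 13 mitochondrial genes, levels were lower in positive than in negative cells of the duodenum, jejunum and ileum without overlap, and overlapped in the colon. The positive duodenum libraries held 26456, 24696 and 12480 and the negative ones 50964, 60654 and 38554. In the jejunum the sums were 24297, 25487 and 30393 against 56374, 66072 and 32421, and in the ileum 31807, 35972 and 16489 against 41655, 56160 and 42111. In the colon the sorts overlapped, 58410, 70893 and 70026 against 68740, 69984 and 43133. The 93 nuclear members showed the same order of sorts in the duodenum, with 9799, 13048 and 12757 in positive and 22343, 26504 and 25850 in negative cells, and in the jejunum, with 9220, 8410 and 14856 against 22749, 16332 and 24761. In the ileum the nuclear sums overlapped, 8900, 8328 and 9936 against 9795, 10349 and 16913, and in the colon too, 13346, 13367 and 20326 against 12795, 16370 and 20008.

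The ratio of the sums overlapped between the sorts in every region. In the ileum the positive library lay below the negative one of the same number each time, in ratio and in nuclear sum. In the other regions the ratio went both ways by number. The labels tie no number to a mouse, and a block on the numbers was not fitted. The ratio of mitochondrial to nuclear subunit counts was 1.86 ± 0.861 (SD, n = 3) for positive and 2.02 ± 0.458 for negative duodenum libraries. Jejunum libraries gave 2.57 ± 0.495 and 2.61 ± 1.37, ileum libraries 3.18 ± 1.37 and 4.06 ± 1.48, and colon libraries 4.38 ± 0.929 and 3.93 ± 1.64. The mean difference of the log2 ratios, positive minus negative, was -0.21, 0.11, -0.39 and 0.23 from duodenum to colon, each within the spread of the libraries. By its mean the ratio was lowest in the duodenum in both sorts and highest in the colon in positive and in the ileum in negative cells, although neighbouring regions overlapped. In bulk samples fewer cells of a type and less RNA per cell cannot be told apart.

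**Figure D2:**
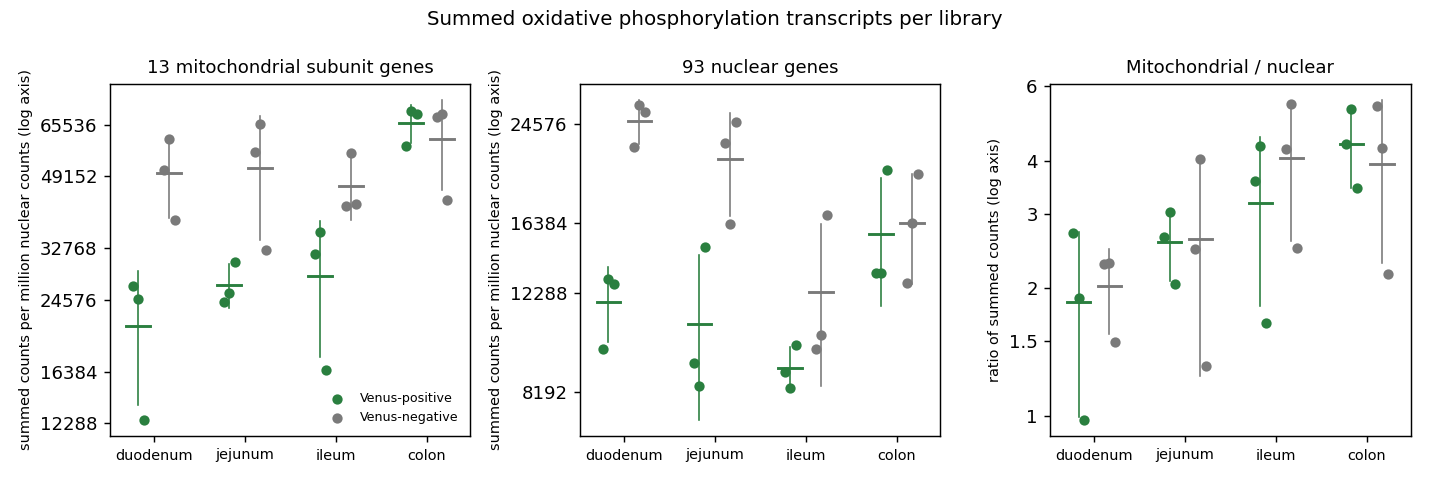
Summed levels per library in CPM of nuclear counts for the mitochondrial genes (left) and the nuclear genes (middle), and their ratio (right), on logarithmic axes; points are libraries, horizontal lines means and vertical lines 1 SD (n = 3). Positive libraries lie below negative ones for duodenum and jejunum in the left and middle panels and for ileum in the left one, and the ratio overlaps between the sorts in each region.

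Gene by gene, the mitochondrial subunits *mt-Nd1*, *mt-Nd2* and *mt-Cytb* were lower in positive cells of the duodenum and jejunum, and *mt-Nd1* and *mt-Nd2* in the ileum as well. The level of *mt-Nd1* (complex I, chrM:2751-3707) in the duodenum was 4068, 4162 and 2340 in positive and 10580, 12348 and 7737 in negative libraries, and the groups did not overlap (log2 ratio -1.54 ± 0.38, adjusted p = 0.00545, edgeR's quasi-likelihood test, the log2 ratio being the fitted log2 fold change with its SE). The jejunum gave 3245, 3128 and 4347 against 10648, 12516 and 6304 (log2 ratio -1.46 ± 0.38, adjusted p = 0.00236) and the ileum 3955, 3956 and 1762 against 6713, 9694 and 7205 (log2 ratio -1.29 ± 0.38, adjusted p = 0.00748), again without overlap. In the colon the positive libraries, 10171, 11112 and 10114, lay among the negative ones, 11863, 12810 and 6973 (log2 ratio -0.01 ± 0.37, adjusted p = 0.992). *mt-Nd2*, another complex I subunit, fell in the same 3 regions by 1.30, 1.11 and 1.09 on the log2 scale, with adjusted p of 0.00893, 0.00884 and 0.0117. *mt-Cytb* was at 6869, 6268 and 3129 against 14375, 16346 and 10079 in the duodenum (log2 ratio -1.33 ± 0.38, adjusted p = 0.0163) and also passed in the jejunum (log2 ratio -1.12 ± 0.38, adjusted p = 0.0172). In the ileum its groups were still apart, 8600, 9070 and 4377 against 12176, 15659 and 12454, but the test did not pass (log2 ratio -0.87 ± 0.38, adjusted p = 0.0694). Of the 6 fits that each left out 1 library of the region, 4 lost the jejunum call of *mt-Cytb* (positive library 1 or 2, negative library 1 or 2) and 2 its duodenum call (positive library 3, negative library 2). The ileum calls of *mt-Nd1* and *mt-Nd2* were lost without positive library 3 or negative library 2, and the jejunum call of *mt-Nd2* without negative library 2.

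*mt-Co1*, *mt-Nd4* and *mt-Nd5* had differences in the same direction that did not pass in edgeR. In the duodenum their log2 fold changes were -1.11 ± 0.39, -0.99 ± 0.37 and -1.07 ± 0.40, with adjusted p of 0.0512, 0.0656 and 0.063, and for each gene all 3 positive libraries lay below all 3 negative ones. In the jejunum and ileum their values ranged from -0.71 (*mt-Nd5*, jejunum) to -0.48 (*mt-Co1*, ileum) and the groups overlapped. *mt-Nd6*, the single subunit encoded on the light strand of the mitochondrial genome, was near equal between the sorts, with log2 fold changes of -0.12, -0.21, 0.11 and 0.27 from duodenum to colon. Its level in the duodenum was 297, 197 and 79.4 in positive and 238, 202 and 185 in negative libraries, which overlapped. *mt-Nd6* overlaps *mt-Nd5* by a few bases on the opposite strand, and the strand setting of the counting is not given in the sources used here. The 2 mitochondrial ribosomal RNAs, *mt-Rnr1* and *mt-Rnr2*, stood at -1.37 and -1.21 (log2 fold change, duodenum) and did not pass (adjusted p = 0.0783 and 0.144). By DESeq2 6 of the 7 mitochondrial genes were lower in the duodenum, 3 in the jejunum and 3 in the ileum, beside 3, 3 and 2 in edgeR. The share of all genes is not given for the DESeq2 counts. In the colon none of the 7 mitochondrial genes passed, 0 also at an unadjusted p under 0.05 and 0 by DESeq2.

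**Figure D3:**
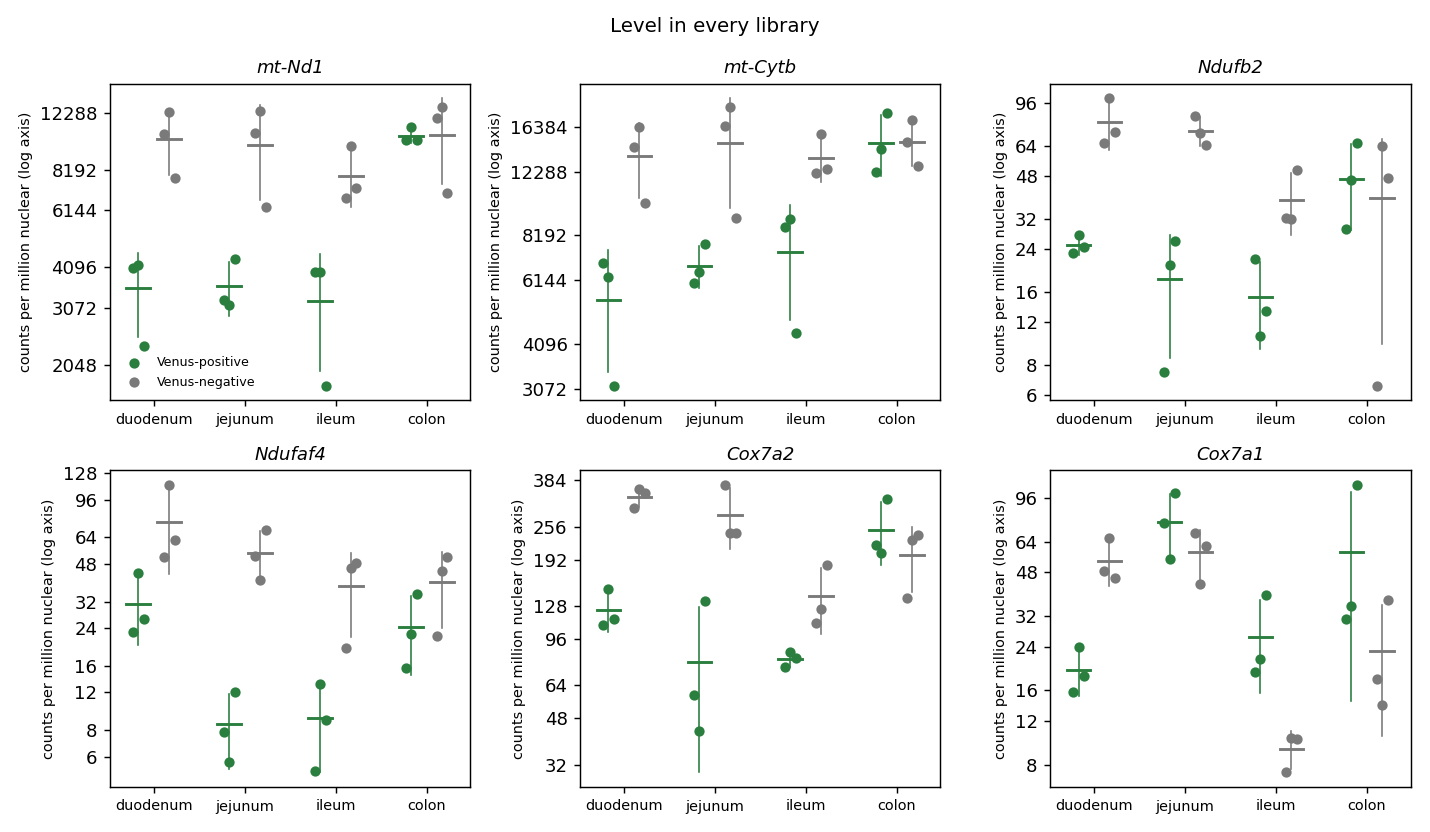
Levels of 6 members in every library, in CPM of nuclear counts on logarithmic axes; points are libraries, horizontal lines means and vertical lines 1 SD (n = 3). *mt-Nd1*, *Ndufb2* and *Ndufaf4* separate the sorts in the 3 small intestinal regions, *mt-Cytb* and *Cox7a2* do too, and *Cox7a1* is lower in positive cells in the duodenum and higher in the ileum.

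Among the 87 nuclear members tested, most were lower in positive cells of the duodenum and jejunum, fewer in the ileum and a single member in the colon. In the duodenum 51 were lower (6.72% of all genes tested were called lower, 9.86% higher) and 0 higher, also 0 at an unadjusted p under 0.05 and 0 by DESeq2. Their median log2 fold change was -1.18, beside -1.11 for the 7 mitochondrial genes and -0.11 for all genes. In the jejunum 55 were lower and 1 higher (22.8% and 20.7% of all genes), with medians of -1.32, -0.71 and -0.16 for nuclear members, mitochondrial members and all genes. In the ileum 25 were lower and 1 higher (18.7% and 19.2% of all genes), with medians of -0.67, -0.56 and -0.21. In the colon 1 was lower and 1 higher (4.52% and 7.92% of all genes), with medians of -0.06, 0.20 and -0.09. In all 3 small intestinal regions 20 nuclear members were lower, against 3.86% of all genes tested called lower in those 3.

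How far the 2 genomes moved depended on single libraries. In the duodenum the nuclear median ran from -1.35 to -1.09 and the mitochondrial one from -1.52 to -0.93 when 1 duodenum library was left out. In the jejunum the nuclear and mitochondrial medians were -1.13 and -1.01 without the negative library numbered 3, -1.43 and -0.50 without the negative library numbered 2, and -1.63 and -1.13 without the libraries numbered 3 of every group. In the ileum they were -0.37 and -0.68 without the negative library numbered 3, -0.61 and -0.84 without the positive library numbered 2, -0.75 and -0.26 without the positive library numbered 3, -0.73 and -0.33 without the negative library numbered 2, and -0.48 and -0.43 without all libraries numbered 3. The order of the 2 medians thus turned with the library left out in the ileum, and in the duodenum as well, where they were -1.13 and -1.52 without the positive library numbered 1 and -1.13 and -1.27 without the negative library numbered 3. The colon medians changed sign with the library left out, from -0.31 to 0.13 for nuclear and from -0.02 to 0.30 for mitochondrial members.

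Positive libraries also lay below negative ones in the plain order of the libraries. All 3 positive libraries lay below all 3 negative ones for 79 of the 94 duodenal members tested (19.1% of all genes), 56 jejunal (26.9%), 45 ileal (28.1%) and 6 colonic ones (13.5%). The direction of the nuclear median in the duodenum, jejunum and ileum was negative under each scaling tried, while that of the colon lay between -0.09 and 0.02. Scaling on total nuclear counts without TMM factors moved the median of all genes in the duodenum from -0.11 to -0.84 and that of the nuclear members from -1.18 to -1.88. Scaling on the total of all genes, ribosomal RNA included, gave medians of 0.27 and -0.81 and called 17 members lower in the duodenum in place of 54. Without the 8 libraries numbered 3, 61, 64, 10 and 0 members were lower from duodenum to colon. That fit has fewer libraries in every group, and the share of all genes called lower in it is not given here. Leaving out the negative ileum library numbered 3 alone also gave 10.

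**Figure D4:**
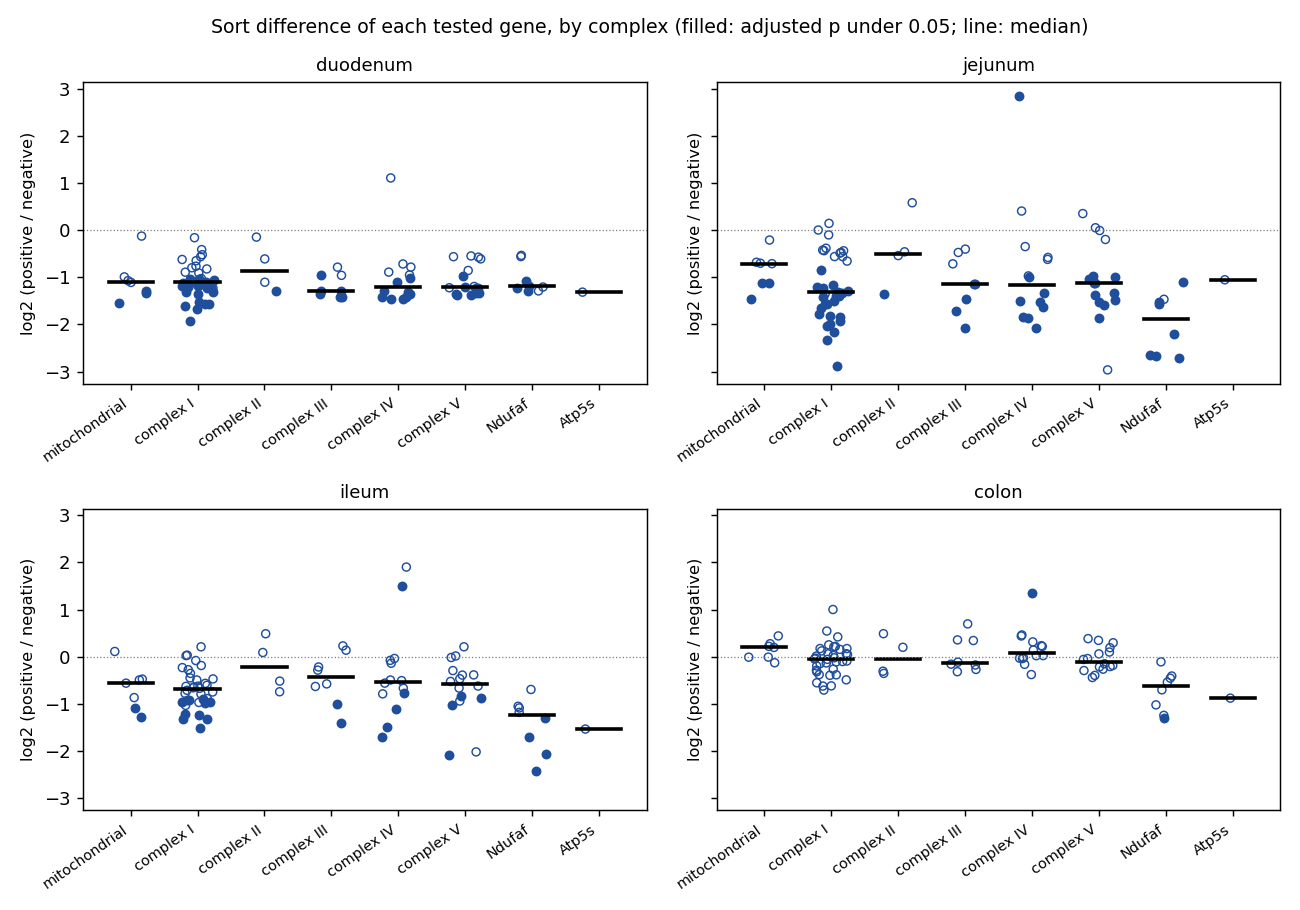
Log2 ratio of positive to negative cells (y axis) for each of the 94 tested members in each region, grouped by complex (x axis); filled points passed at an adjusted p of 0.05 and lines are medians. In duodenum and jejunum the medians of each group lie below 0, in the colon they lie near 0 except for the Ndufaf factors and *Atp5s*.

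Many cell type markers differed between the sorts in all 4 regions, also in the colon, where the subunits had medians near 0. Markers of stem and proliferating cells had median log2 fold changes of -1.30, -3.71, -3.12 and -1.53 from duodenum to colon. The nuclear members had -1.18, -1.32, -0.67 and -0.06, so the order of the regions was not the same. Markers of stem and proliferating cells summed to 1440 to 2878 in positive and 4622 to 6391 in negative duodenum libraries, 112 to 942 against 4078 to 6631 for jejunum, 358 to 685 against 3096 to 10134 for ileum, and 186 to 214 against 435 to 835 for colon, with 4, 9, 9 and 5 of the 9 markers lower. *Ascl2* was at or under 3 counts in each positive jejunum library. Goblet markers were higher in positive cells for 8, 8, 8 and 7 of 8 genes, enterocyte markers for 3, 12, 12 and 4 of 12, and enteroendocrine markers were lower for 8, 8, 7 and 5 of 8. In the duodenum 1 enterocyte marker was lower. Paneth markers were higher for 6, 6 and 6 of 6 genes from duodenum to ileum and summed to 63266 to 148177 in positive against 522 to 2000 in negative duodenum libraries, and in the colon their sums overlapped, 122 to 563 against 41.8 to 739. Tuft cell markers were lower for 3, 4 and 4 of 4 genes from duodenum to ileum. Their part in the subunit differences was not tested.

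Short genes as a whole had lower medians than long genes. Most subunit genes are short: 46 of the 87 nuclear members code for under 450 nt and 26 for 450 to 900 nt. In the duodenum members under 450 nt had a median log2 fold change of -1.19, beside -0.71 for all genes of that coding length, and members of 450 to 900 nt -1.21, beside -0.29. In the jejunum the medians were -1.33 beside -1.18 and -1.34 beside -0.49. In the ileum members under 450 nt, at -0.68, did not lie below all genes of that length, at -0.72, whereas members of 450 to 900 nt were at -0.65 beside -0.32. In the colon the order was turned for the shortest members, at 0.02 beside -0.23, and members of 450 to 900 nt were at -0.24 beside -0.17. Across the 87 nuclear members Spearman's correlation of log2 fold change with coding length was 0.31, 0.20, 0.12 and -0.36 from duodenum to colon, beside 0.16, 0.14, 0.07 and 0.08 across all genes, which are not independent replicates. Over 900 nt, with 15 members, the medians were -0.78, -0.56, -0.63 and -0.19 from duodenum to colon, beside 0.05, 0.06, -0.01 and 0.00 for all such genes. The part of length in the calls of the members was not tested.

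**Figure D5:**
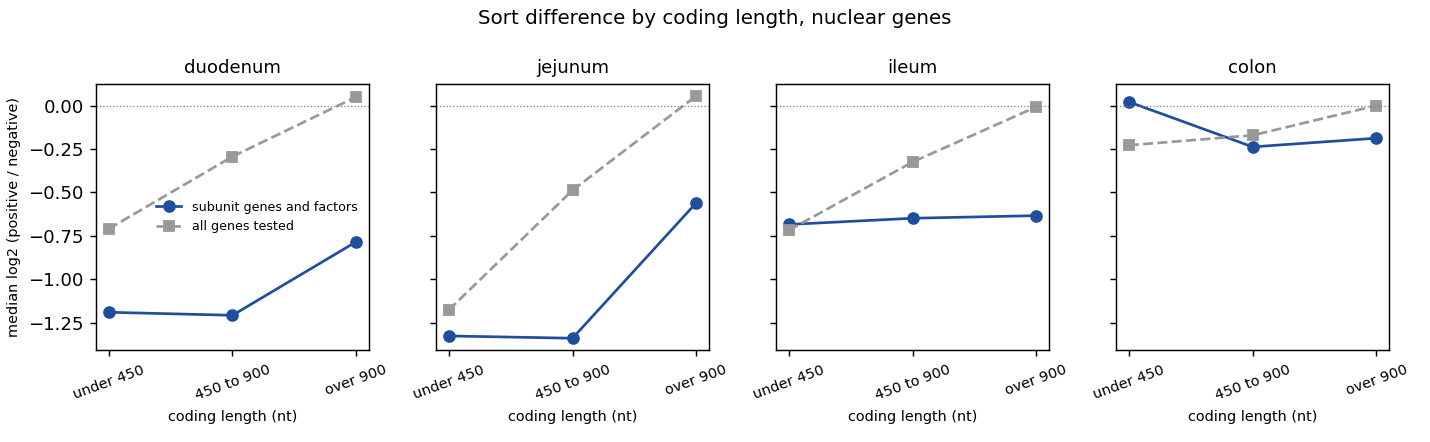
Median log2 ratio of positive to negative cells (y axis) by coding length (x axis, nt) for the nuclear members (circles) and all genes tested (squares) in each region. The circles lie below the squares in each class of the duodenum and jejunum, and the first classes of the ileum nearly coincide, at -0.68 and -0.72.

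Complex I, the NADH dehydrogenase, had 36 nuclear subunits tested, of which 22, 23 and 11 were lower from duodenum to ileum. All genes tested, beside which this and the counts of the other complexes stand, were called lower at 6.72%, 22.8% and 18.7% from duodenum to ileum. In the colon, where *Ndufaf1* and *Cox7a1* were the sole members called, the median of complex I was -0.05. Of the 7 core subunits, which carry the flavin and iron-sulphur clusters, 2, 3 and 2 were lower, and of the 29 supernumerary ones 20, 20 and 9. In the ileum those shares, 28.6% and 31.0%, were close, and the difference between the classes was not tested. *Ndufs1* and *Ndufv1*, which hold the electron entry path, were at -0.41 ± 0.32 and -0.52 ± 0.35 in the duodenum and 0.02 and -0.23 in the ileum, none past the test. *Ndufv2*, their partner in the NADH module, was at 209.8, 276 and 220.2 in positive and 636, 815 and 644 in negative duodenum libraries, without overlap (log2 ratio -1.57 ± 0.35, adjusted p = 0.00204). It was lower in the jejunum as well (log2 ratio -1.85 ± 0.35, adjusted p = 7.92e-05) and in the ileum (log2 ratio -0.93 ± 0.34, adjusted p = 0.0318), where the call was lost without any 1 of the positive libraries or negative library 3, whereas its colon groups overlapped, 274, 312 and 539 against 235, 391 and 539.

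The supernumerary subunits *Ndufab1*, *Ndufb2* and *Ndufc2* had large differences in the duodenum. *Ndufab1*, the mitochondrial acyl carrier protein, was at 8.45, 2.07 and 7.39 against 25.2, 22.8 and 19.4 (log2 ratio -1.93 ± 0.54, adjusted p = 0.0144), and its values in the jejunum (-0.48 ± 0.50) and ileum (-0.36 ± 0.51) did not pass. *Ndufb2* was at 23, 27.3 and 24.4 against 65.7, 101 and 72.9 in the duodenum (log2 ratio -1.68 ± 0.48, adjusted p = 0.016) and at 7.47, 20.6 and 25.9 against 84.9, 72.3 and 64.4 in the jejunum (log2 ratio -2.04 ± 0.48, adjusted p = 0.00107). The duodenum call of *Ndufb2* was lost without positive library 1 or negative library 2, and that of *Ndufab1* without positive library 2. *Ndufc2* was at 85.1, 104 and 54.3 against 220.1, 342 and 186 in the duodenum (log2 ratio -1.62 ± 0.34, adjusted p = 0.00149) and at 41.5, 21.1 and 68.2 against 300.3, 183 and 175 in the jejunum (log2 ratio -2.34 ± 0.35, adjusted p = 4.8e-06). Its positive libraries lay below the negative ones in all 4 regions, although the colon value did not pass (log2 ratio -0.63 ± 0.34, adjusted p = 0.241). *Ndufb9*, among the 5 most abundant nuclear members per length, was at 224, 317 and 208 against 552, 675 and 623 in the duodenum (log2 ratio -1.30 ± 0.32, adjusted p = 0.00466) and was lower in the jejunum too (log2 ratio -1.58 ± 0.32, adjusted p = 0.000177). *Ndufb4* in the jejunum was at 5.42, 0.787 and 6.26 against 39.9, 24.8 and 25.8 (log2 ratio -2.88 ± 0.71, adjusted p = 0.00152). The 0.787 was near the floor of detection, 3 counts, which made 0.29 to 1.09 CPM over the libraries. *Ndufb6* was lower in the jejunum, 27.8, 20.5 and 43.8 against 176, 114 and 123 (log2 ratio -2.17 ± 0.31, adjusted p = 1.94e-06), but 31.6% of its windows also lie in transcripts of other genes, most of them *Smim27*, so reads could be split between them. Shared windows of the other nuclear members, except *Ndufaf2*, are not given here. Mean levels were low for *Ndufab1* (15.2 CPM), *Ndufb4* (14.1) and *Atp5g1* (8.17), beside 363 for *Ndufb9*. Whether the unique alignment of reads lowered their counts was not tested.

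The complex I assembly factors had a lower median than the complex I subunits in each region, a difference that was not tested. Of the 8 Ndufaf genes 4, 7, 4 and 1 were lower from duodenum to colon (6.72%, 22.8%, 18.7% and 4.52% of all genes), with medians of -1.19, -1.89, -1.24 and -0.62, beside -1.11, -1.32, -0.69 and -0.05 for the subunits. In the duodenum the calls of *Ndufaf1* and *Ndufaf5* were each lost in 5 of the 6 fits that left out a duodenum library (all but positive library 3 and all but positive library 2), and that of *Ndufaf4* in 3 (positive library 1 or 3, negative library 2). *Ndufaf5*, which modifies a core subunit early in assembly, was at 4.67, 4.72 and 9.17 in positive and 46.3, 33.7 and 41 in negative jejunum libraries (log2 ratio -2.71 ± 0.39, adjusted p = 2.59e-06) and at 6.36, 6.03 and 2.83 against 18.5, 25.4 and 39.7 in the ileum (log2 ratio -2.43 ± 0.39, adjusted p = 1.38e-05). *Ndufaf4* was at 7.85, 5.66 and 12.1 against 52.3, 40.2 and 69.5 in the jejunum (log2 ratio -2.67 ± 0.45, adjusted p = 1.9e-05), also without overlap, and at 5.12, 13.1 and 8.94 against 19.4, 46.2 and 48.4 in the ileum (log2 ratio -2.07 ± 0.44, adjusted p = 0.000395). In the colon, by contrast, *Ndufaf4* overlapped, 15.5, 22.4 and 34.7 against 22.2, 44.5 and 51.5 (log2 ratio -0.70 ± 0.42, adjusted p = 0.296). *Ndufaf6* in the jejunum was at 6.73, 0.787 and 6.93 against 29.1, 27.3 and 33 (log2 ratio -2.65 ± 0.55, adjusted p = 0.000279), and the 0.787 was again near the floor of 3 counts.

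*Ndufaf1*, an early assembly factor, was the sole member lower in positive cells of all 4 regions. In the colon its levels were 7.88, 7.34 and 8.71 against 21.4, 19.2 and 18.6, well separated (log2 ratio -1.30 ± 0.43, adjusted p = 0.0428), and in the duodenum 10.2, 5.74 and 14.5 against 31.2, 20.2 and 19.4 (log2 ratio -1.23 ± 0.43, adjusted p = 0.0465). The colon call was lost in 15 of the 24 fits that left out a library, the duodenum call in 18 and the ileum call in 3 (positive ileum library 3, negative ileum library 2 or 3), and the colon and ileum calls were lost without the libraries numbered 3. *Ndufaf2* was lower in the jejunum (log2 ratio -2.21 ± 0.45, adjusted p = 0.000187) and ileum (log2 ratio -1.70 ± 0.44, adjusted p = 0.0027), but 64.1% of its windows lie also in the overlapping *B230220B15Rik*, so its counts are uncertain, and the ileum call was lost without negative library 3.

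In complex II, wholly nuclear, 1 of the 4 subunits was lower in the duodenum (6.72% of all genes) and 1 in the jejunum, a share near that of all genes there (22.8%). *Sdha*, the flavoprotein that oxidises succinate, passed in no region, with levels of 307, 318 and 422 in positive and 189.9, 238 and 271 in negative jejunum libraries, where positive libraries were all above (log2 ratio 0.58 ± 0.29, adjusted p = 0.101). *Sdhb*, the iron-sulphur subunit, was lower in the duodenum, 127, 210.4 and 208 against 371, 532 and 439 (log2 ratio -1.30 ± 0.28, adjusted p = 0.0016), and overlapped in the jejunum, ileum and colon, with log2 fold changes of -0.46, 0.09 and 0.20. Of the membrane anchors, *Sdhd* was called lower in the jejunum (log2 ratio -1.36 ± 0.48, adjusted p = 0.0211) although its libraries overlapped, 119, 72.2 and 319 against 388, 254 and 669, and the call was lost in 3 of the 6 fits that left out a jejunum library (positive library 1 or 2, negative library 3). *Sdhc* was between -0.61 and -0.31 and passed in no region.

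In complex III 6, 5 and 2 of the 8 nuclear subunits were lower from duodenum to ileum, the ileum share being near that of all genes (18.7%). *Uqcrq*, a small subunit and among the 5 most abundant nuclear members per length, was at 370.4, 697 and 376 against 1045, 1384 and 1104 in the duodenum (log2 ratio -1.29 ± 0.31, adjusted p = 0.00428) and at 326, 343 and 423 against 1199, 921 and 881 in the jejunum (log2 ratio -1.46 ± 0.31, adjusted p = 0.000329). Its ileum groups overlapped (log2 ratio -0.29 ± 0.30, adjusted p = 0.483). *Uqcr10*, also small, was lower in all 3 small intestinal regions, by 1.42, 2.07 and 1.40 on the log2 scale. Of the core proteins, *Uqcrc2* was lower in the duodenum (log2 ratio -1.29 ± 0.38, adjusted p = 0.0175) and, with overlapping libraries, in the jejunum (log2 ratio -1.15 ± 0.38, adjusted p = 0.0143), and *Uqcrc1*, at -0.78 ± 0.38 and -0.40 ± 0.38, did not pass.

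In complex IV, cytochrome c oxidase, 9, 8 and 4 of 14 nuclear members were lower from duodenum to ileum (28.6% in the ileum, beside 18.7% of all genes). The 14 include *Ndufa4*, which was counted here and not in complex I, and *Cox7a2l*, both called lower in the ileum. *Cox4i1*, the largest nuclear subunit, had the highest level per length of the nuclear members, with 440.3, 739 and 442 in positive and 1165, 1536 and 1273 in negative duodenum libraries (log2 ratio -1.29 ± 0.37, adjusted p = 0.0168). The call was lost without positive library 1 or negative library 2. It was lower in the jejunum too, 359.7, 266 and 677 against 1470, 887 and 1310 (log2 ratio -1.49 ± 0.38, adjusted p = 0.00182). *Cox7b*, needed for assembly of the enzyme, was lower in duodenum (log2 ratio -1.47 ± 0.29, adjusted p = 0.00065), jejunum (log2 ratio -1.63 ± 0.29, adjusted p = 4.09e-05) and ileum (log2 ratio -0.77 ± 0.28, adjusted p = 0.0327). The ileum call was lost in 5 of the 6 fits that left out an ileum library (all but negative library 1) and without the libraries numbered 3. Its duodenum levels were 329.6, 448 and 228 in positive and 847, 1046 and 886 in negative libraries, without overlap, and its colon levels 662, 732 and 969 against 677, 831 and 638 overlapped.

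*Cox7a2* and *Cox7a1* are an isoform pair of complex IV, and the difference between the 2 genes was not tested. *Cox7a2*, the widely expressed isoform, was at 109, 149 and 114 in positive and 302, 355 and 343 in negative duodenum libraries (log2 ratio -1.43 ± 0.33, adjusted p = 0.00337) and 58.9, 42.8 and 134 against 369.8, 242 and 242 in the jejunum (log2 ratio -1.86 ± 0.34, adjusted p = 4.9e-05). Its ileum groups did not overlap, 75.1, 85.7 and 81.3 against 111, 124 and 184, but missed the threshold (log2 ratio -0.79 ± 0.33, adjusted p = 0.0575). *Cox7a1*, known as the heart and skeletal muscle isoform, was lower in positive cells of the duodenum, 15.7, 23.9 and 18.3 against 48.7, 66 and 45.4 (log2 ratio -1.46 ± 0.42, adjusted p = 0.0157). It overlapped in the jejunum, 75.9, 54.4 and 100.4 against 69.5, 43 and 61.2 (log2 ratio 0.41 ± 0.40, adjusted p = 0.429). In the ileum it was higher in positive cells, 18.9, 21.5 and 38.8 against 7.43, 10.2 and 10.2, without overlap (log2 ratio 1.50 ± 0.42, adjusted p = 0.00545). It was called higher in the colon as well (log2 ratio 1.34 ± 0.41, adjusted p = 0.0301), where the highest negative library exceeded the lowest positive ones, 31.1, 34.9 and 109 against 17.8, 13.9 and 37.2. That colon call was lost in the fits without the positive library numbered 3 or the negative library numbered 1 or 2, and the ileum call without the positive library numbered 3. The duodenum call was lost without the positive library numbered 1 or the negative library numbered 2. The muscle markers *Myh11*, *Des*, *Ckm* and *Actg2* were all at or under 3 counts in each duodenum and jejunum library. In the ileum and colon 1 or 2 of them exceeded 3 counts in some library, *Des* in positive cells of both regions, *Myh11* and *Des* in negative ileum and *Ckm* in negative colon cells. Their summed level there was 0 to 1.4 CPM in positive against 0 to 1.03 in negative ileum libraries and 0.544 to 1.31 against 0 to 1.27 in colon libraries, and their part in the *Cox7a1* values was not tested.

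Of the other isoform pairs, *Cox6b2*, known from testis, was at 8.97, 13.1 and 5.37 in positive and 1.8, 1.17 and 0.797 in negative jejunum libraries (log2 ratio 2.85 ± 1.05, adjusted p = 0.0285), the largest rise among the members. The negative value of 0.797 was near the floor of 3 counts, and the call was lost in 5 of the 6 fits that left out a jejunum library. Its common partner *Cox6b1* was lower there, 112, 87.3 and 185 against 376, 270.2 and 316 (log2 ratio -1.32 ± 0.30, adjusted p = 0.000736). *Cox6a1* and *Cox8a* passed in no region, with log2 fold changes in the duodenum of -0.78 ± 0.28 and -0.72 ± 0.28. The partners *Cox4i2*, *Cox6a2* and *Cox8b* had 1, 8 and 4 counts over all 24 libraries, and the other untested nuclear members *Cox7b2*, *Cox8c* and *Ndufa4l2* 0, 0 and 1.

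In complex V, ATP synthase, 9, 11 and 4 of 16 nuclear subunits were lower from duodenum to ileum, and the ileum share was near that of all genes (18.7%). The catalytic head subunits passed in none of the 4 regions in edgeR. *Atp5a1* was at 620.4, 819 and 1408 in positive and 1261, 1422 and 1659 in negative duodenum libraries, which overlapped (log2 ratio -0.61 ± 0.33, adjusted p = 0.21), and *Atp5b* was at -0.56 ± 0.34, -0.01 ± 0.34, 0.01 ± 0.34 and -0.22 ± 0.34 from duodenum to colon. *Atp5g1*, a gene for the c subunit of the rotor ring, was lower in the ileum, 1.4, 1.77 and 2.4 against 8.23, 5.51 and 9.89 (log2 ratio -2.08 ± 0.61, adjusted p = 0.00726), and in the jejunum (log2 ratio -1.49 ± 0.58, adjusted p = 0.0384). The jejunum call was lost in 7 of the 24 fits that left out 1 library, 5 of them leaving out a jejunum library (all but positive library 3) and the others negative ileum library 1 or 2. *Atp5c1*, the central stalk subunit, was lower in the duodenum (log2 ratio -1.21 ± 0.32, adjusted p = 0.00938) and, with overlapping libraries, in the jejunum (log2 ratio -0.98 ± 0.32, adjusted p = 0.0133).

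Whether the sort difference depended on region was tested with an interaction. Over the 4 regions jointly 21 of the 94 members passed, all of them nuclear (22.3%, near the 16.1% of all genes). That count ranged from 11 without positive colon library 3 to 36 without positive jejunum library 3, and from 9 with total counts of all genes to 61 with total nuclear counts. In the same test 8 of 8 goblet, 6 of 6 Paneth, 11 of 12 enterocyte, 7 of 8 enteroendocrine and 6 of 9 stem and proliferative markers passed, and their part in the members' differences was not tested. *Cox7a1* had the smallest p (adjusted p = 0.00192), followed by *Ndufaf5* (0.00479), *Ndufb6* (0.00532), *Cox7a2* (0.00588) and *Cox7b* (0.00679). Between jejunum and colon the difference was lower in the jejunum for 25 members (4.88% of all genes), among them *Cox7a2* (-2.17 ± 0.47) and *Ndufb6* (-2.07 ± 0.42). Between duodenum and colon it was lower in the duodenum for 8 (1.48% of all genes), namely *Ndufab1*, *Cox7a1*, *Uqcrb*, *Cox7a2*, *Uqcr11*, *Uqcrq*, *Cox7b* and *Sdhb*. Between ileum and colon 2 members passed (0.81% of all genes), *Ndufaf5* and *Ndufa4*. Within the small intestine few members differed: duodenum against jejunum gave *Cox7a1* lower (6.41% of all genes called lower), duodenum against ileum gave *Cox7a1* and *Sdhb* (6.01%), and jejunum against ileum 0 in edgeR (0.165%), 10 at an unadjusted p under 0.05 and 0 by DESeq2. The sort difference of *Ndufaf5* was less negative in the duodenum than in the jejunum (log2 ratio 1.64 ± 0.52, adjusted p = 0.0339). Of the 7 mitochondrial genes 0 passed between duodenum and colon in edgeR, 6 at an unadjusted p under 0.05 and 2 by DESeq2. The share of all genes is not given for the unadjusted and DESeq2 counts, which are no result about these genes. The median interaction value of the 7 genes there was -1.32, beside -0.95 for nuclear members and -0.004 for all genes.

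Along the gut within positive cells, the counts of both genomes were unlike between duodenum and colon, without a test of that contrast. All 7 mitochondrial genes were lower in the duodenum than in the colon, with a median log2 fold change of -1.45, whereas 4 of 87 nuclear members were, with a median of -0.36 (6.41% of all genes). The largest was *mt-Co1*, at 8605, 8834 and 4591 in the duodenum and 23318, 32135 and 26487 in the colon (log2 ratio -1.90 ± 0.40, adjusted p = 0.00115). *mt-Nd6*, which passed in no sort comparison, was lower here, 297, 197 and 79.4 against 403, 428 and 612 (log2 ratio -1.33 ± 0.34, adjusted p = 0.00668). The 4 nuclear members were *Cox7a1*, *Cox7b*, *Cox6a1* and *Cox7a2*, all of complex IV. Paneth markers were higher in the duodenum for 6 of 6 genes, with a median log2 fold change of 8.83, and goblet markers for 6 of 8. Of the 12 enterocyte markers 8 were higher and 1 lower, and of the 8 enteroendocrine markers 2 were higher and 6 lower. Between ileum and colon both genomes differed: 42 nuclear and 4 mitochondrial members were lower in the ileum (10.1% of all genes), with medians of -0.93 and -1.01. In this pair 12 of 12 enterocyte and 5 of 6 Paneth markers were higher in the ileum, and of 8 goblet markers 3 were higher and 2 lower. *Ndufb6* was at 28.9, 17.2 and 31 in ileum and 83.6, 73.2 and 98 in colon (log2 ratio -1.73 ± 0.30, adjusted p = 9.89e-05).

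Between duodenum and jejunum, 10 nuclear members had higher levels in duodenal positive cells (17.2% of all genes), 5 of them Ndufaf genes led by *Ndufaf5*, at 22.4, 33.8 and 14.1 against 4.67, 4.72 and 9.17 (log2 ratio 1.94 ± 0.39, adjusted p = 0.000296). The 4 that were lower (15.3% of all genes) included *Cox7a1*, at 15.7, 23.9 and 18.3 against 75.9, 54.4 and 100.4 (log2 ratio -1.99 ± 0.42, adjusted p = 0.000539). Between jejunum and ileum *Cox7a1* was the sole member called, higher in the jejunum (2.11% of all genes, log2 ratio 1.54 ± 0.41, adjusted p = 0.0222). In these comparisons the enterocyte markers were lower in the duodenum than in the jejunum for 12 of 12 genes and the goblet markers higher for 8 of 8. Of the 6 Paneth markers 4 were higher in the duodenum and 1 lower.

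In negative cells 11 members were called in at least 1 of the 4 contrasts between regions, beside 54 in positive cells, a difference that was not tested. Of all genes tested 12.2% were called in at least 1 of those contrasts in negative and 43.3% in positive cells, so the share of all genes was also smaller in negative cells. The count of 11 was 42 without the libraries numbered 3, 38 with the i5 index as covariate, 27 by DESeq2 and 5 to 26 when 1 library was left out (5 without negative duodenum library 2, 26 without negative ileum library 3), where that of 54 ranged from 35 to 60. In the duodenum 9 members were higher than in the colon (4.88% of all genes), led by *Uqcrq*, at 1045, 1384 and 1104 against 341, 624 and 474 (log2 ratio 1.29 ± 0.31, adjusted p = 0.00445), while the 7 mitochondrial genes had a median of -0.14 and 0 passed, 1 at an unadjusted p under 0.05 and 0 by DESeq2. Between jejunum and ileum 4 members were higher in the jejunum (1.38% of all genes), and *Cox7a1* led again, at 69.5, 43 and 61.2 against 7.43, 10.2 and 10.2 (log2 ratio 2.64 ± 0.43, adjusted p = 0.000227), so that its level fell from jejunum to ileum in both sorts. Enterocyte markers were higher in the jejunum for 7 of 12 genes there and lower for 1, with a median of 2.06. In the duodenum against the colon 10 of 12 enterocyte and 4 of 6 Paneth markers were higher and 6 of 8 goblet markers lower, and in the ileum against the colon 4, 5 and 6 of the same lists. In the duodenum against the colon 1 enterocyte marker was lower. Between duodenum and jejunum 0 members passed (0.691% of all genes), 0 also at an unadjusted p under 0.05 and by DESeq2. Between ileum and colon 0 passed in edgeR (4.97% of all genes, either direction). At an unadjusted p under 0.05, 16 nuclear members and 1 mitochondrial member were lower in the ileum, and 5 by DESeq2. The share of all genes is not given for these looser counts, which are no result about the members.

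Promoters were read because many nuclear members were lower in the same samples. RefSeq (GRCm38.p6) gave promoters of 250 bases before to 50 after the start for 76 of the 93 nuclear members, 81 promoters in all. Core motifs of factors known for these genes were searched on both strands: GCATGCGC for NRF1, CCGGAAG for the ETS family that holds GABPA, AAGATGGCG for YY1 and AAGGTCA for the oestrogen-related receptors. They were in 14.8%, 22.2%, 9.88% and 9.88% of the members' promoters and in 3.52%, 11.6%, 1.83% and 4.08% of the 21263 promoters of all protein-coding genes. At least 1 of them was in 43.2% of members' promoters and 19.3% of all. Shown are the stretches outside annotated exons for *Ndufaf4* (chr4:24897833-24898082, plus strand, 111 to 104 bases before the start for the NRF1 core, which also matches on the other strand 2 bases earlier), *Ndufaf1* (chr2:119662835-119663084, minus strand, ETS core), *Ndufb2* (chr6:39592315-39592564, plus strand, oestrogen-related receptor core), and the isoforms *Cox7a2* (chr9:79759879-79760103, minus strand) and *Cox7a1* (chr7:30183921-30184143, plus strand), with matches in capitals:
Ndufaf4: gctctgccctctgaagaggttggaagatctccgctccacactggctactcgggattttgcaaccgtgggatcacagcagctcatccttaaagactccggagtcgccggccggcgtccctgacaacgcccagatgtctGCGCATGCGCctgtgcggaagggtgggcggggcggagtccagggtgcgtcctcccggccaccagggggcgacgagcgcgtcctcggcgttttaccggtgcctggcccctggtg
Ndufaf1: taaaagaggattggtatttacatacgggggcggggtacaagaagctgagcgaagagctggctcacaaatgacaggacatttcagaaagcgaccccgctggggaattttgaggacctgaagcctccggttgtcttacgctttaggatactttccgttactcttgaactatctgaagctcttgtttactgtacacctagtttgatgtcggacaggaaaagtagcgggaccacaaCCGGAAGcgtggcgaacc
Ndufb2: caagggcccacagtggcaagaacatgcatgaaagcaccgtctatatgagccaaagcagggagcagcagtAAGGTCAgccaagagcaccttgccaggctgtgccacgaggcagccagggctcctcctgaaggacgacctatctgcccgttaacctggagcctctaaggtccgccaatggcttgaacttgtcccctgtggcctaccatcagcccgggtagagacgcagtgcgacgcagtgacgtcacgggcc
Cox7a2: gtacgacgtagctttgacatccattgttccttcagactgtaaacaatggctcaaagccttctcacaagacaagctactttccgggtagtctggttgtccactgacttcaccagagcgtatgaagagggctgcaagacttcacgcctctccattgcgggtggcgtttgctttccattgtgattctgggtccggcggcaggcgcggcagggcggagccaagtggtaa
Cox7a1: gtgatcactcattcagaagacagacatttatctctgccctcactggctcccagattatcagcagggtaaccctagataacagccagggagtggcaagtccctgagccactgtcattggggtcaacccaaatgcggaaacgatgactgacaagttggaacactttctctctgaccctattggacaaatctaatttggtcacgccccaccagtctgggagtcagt
The 3 first members hold a match, and *Cox7a2* and *Cox7a1* hold none of these letters in the window. Members with and without a match were lower in positive cells, *Cox7a2* among the latter in the duodenum (log2 ratio -1.43 ± 0.33, adjusted p = 0.00337) and jejunum (log2 ratio -1.86 ± 0.34, adjusted p = 4.9e-05). A match is a description of the sequence and not a measured site.

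Mitochondrial ribosomal proteins, part of the ribosomes that make the mitochondrial subunits, were lower for 39, 65, 57 and 5 of 77 genes from duodenum to colon, with medians of -1.12, -1.89, -1.33 and -0.47, beside 6.72%, 22.8%, 18.7% and 4.52% of all genes called lower and all-gene medians of -0.11, -0.16, -0.21 and -0.09. The colon share of 6.49% was near that of all genes. Genes of mitochondrial transcription and RNA handling were lower for 8, 19, 18 and 4 of 29, or 27.6%, 65.5%, 62.1% and 13.8%. *Tfam*, the transcription factor that packages mitochondrial DNA, was lower in each region, at 27.5, 18.1 and 37.6 against 142, 85.1 and 139 in the jejunum (log2 ratio -2.14 ± 0.31, adjusted p = 2.43e-06) and also in colonic cells (log2 ratio -1.03 ± 0.30, adjusted p = 0.0217). *Fastkd2*, an RNA-binding protein of mitochondria, was also lower in each region, from -3.13 in the jejunum to -1.52 in the colon. Other assembly factors were lower for 9, 21 and 11 of 39 genes from duodenum to ileum (23.1%, 53.8% and 28.2%), among them *Uqcc2* of complex III in the jejunum (log2 ratio -2.48 ± 0.38, adjusted p = 5.7e-06).

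Enzymes of the tricarboxylic acid cycle, which feed the chain with electrons, were called in both directions. Of 14 genes 3, 4 and 3 were lower (21.4%, 28.6% and 21.4%) and 1, 6 and 5 higher (7.14%, 42.9% and 35.7%) from duodenum to ileum. All genes were called lower at 6.72%, 22.8% and 18.7% and higher at 9.86%, 20.7% and 19.2%, so that the lower shares in the jejunum and ileum were near those of all genes. *Cs*, citrate synthase, was at 1001, 1185 and 1184 in positive and 205, 271 and 338 in negative jejunum libraries, without overlap (log2 ratio 2.05 ± 0.32, adjusted p = 6e-06). *Idh2*, an isocitrate dehydrogenase that makes NADPH, was lower in the jejunum, 18.5, 19 and 38 against 84.5, 68.3 and 104 (log2 ratio -1.77 ± 0.29, adjusted p = 1.27e-05). Of 11 regulators of mitochondrial biogenesis 4, 2 and 1 were higher and 4, 4 and 2 lower from jejunum to colon. Those shares were 36.4%, 18.2% and 9.09% higher, beside 20.7%, 19.2% and 7.92% of all genes, and 36.4%, 36.4% and 18.2% lower, beside 22.8%, 18.7% and 4.52%, so that the higher shares in ileum and colon were near those of all genes. The smallest adjusted p in the duodenum was 0.129 (*Esrrg*, edgeR). The 3 given here were chosen after their values were seen. *Ppargc1a*, the coactivator PGC-1alpha, was higher in the jejunum, 160.3, 158 and 144 against 37.1, 43.7 and 39.7 (log2 ratio 1.94 ± 0.31, adjusted p = 9.29e-06), and in the ileum (log2 ratio 1.65 ± 0.31, adjusted p = 9.37e-05) and colon (log2 ratio 1.54 ± 0.31, adjusted p = 0.00123). *Pprc1*, a related coactivator, was lower in the same regions, by 4.24, 2.31 and 1.49 on the log2 scale. *Myc* was at 3.1, 2.84 and 0.654 in positive and 59.2, 67.1 and 52.8 in negative ileum libraries (log2 ratio -4.71 ± 0.68, adjusted p = 3.44e-06), and the 0.654 was near the floor of 3 counts. Cytochrome c, *Cycs*, was lower in the duodenum (log2 ratio -1.08 ± 0.30, adjusted p = 0.0121) and did not pass in the jejunum, ileum or colon (-0.13, 0.49 and 0.48).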

How the data were processed

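RNA from sorted Venus-positive and Venus-negative cells of 4 gut regions was sequenced in 24 libraries (8 groups of 3, grouped by the labels' region and sort). The authors deposited a table of raw counts per Ensembl gene. The submitters' processing notes name CASAVA, STAR version 2.5.1 and GRCm38, and neither the gene annotation nor the strandedness of counting is given in the sources used here. Rows that name no gene stayed out of all sizes and tests and held, of all reads, 16.7% to 31.8% (multimapping), 11.6% to 24.8% (no feature), 6.09% to 20.6% (unmapped) and 0.331% to 1.36% (ambiguous). No column of samples was left unused.

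Symbols were taken from GENCODE M21 (53360 genes matched). Genes were kept by filterByExpr (minimum count 10, minimum total 15), and libraries were scaled on nuclear counts with TMM factors from nuclear genes. All 24 libraries entered 1 edgeR quasi-likelihood fit with 1 coefficient per group (edgeR 4.0.16, limma 3.58.1, R 4.3.3), and p-values were adjusted by Benjamini-Hochberg over 15185 genes at a threshold of 0.05. Fold changes are given with their SE. The labels do not show which libraries share a mouse, so p-values measure the spread between libraries. Counts carry no molecular identifiers, and depth limits members with few reads.

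Members and lists were chosen with earlier results of these data known. Members named by rule were the 13 mitochondrial genes, the 4 nuclear members per region and direction with the largest called and non-overlapping change, the 5 with the smallest joint interaction p, the isoform pairs, *Sdha* to *Sdhd*, and the 5 most abundant nuclear members per length. Other members and list genes named were chosen after their values were seen. The fit was tested on simulated data. Alternatives covered scaling, DESeq2 1.42.0, filters, the i5 index, thresholds, the libraries fitted and each library left out. Counts of members under an alternative are given without the share of all genes under it. Figures were drawn with matplotlib 3.10.9 under Python 3.11.15.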

Additional observations from a re-analysis of the deposited data

Results flagged for a closer look

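The sort difference depended on region for 21 of 94 members in the joint interaction test of edgeR. That share, 22.3%, was near the 16.1% of all genes. The count of members ran from 9 to 61 over the scalings tried and from 11 to 36 when 1 library was left out. The shares of all genes in those fits are not given here. Values below are differences between regions in the log2 ratio of positive to negative cells, first region minus second, each past an adjusted p of 0.05.

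*Cox7a1*, an isoform of complex IV, differed by -1.87 between duodenum and jejunum, -2.96 between duodenum and ileum and -2.80 between duodenum and colon. *Ndufaf5*, an assembly factor of complex I, differed by 1.64 between duodenum and jejunum, -2.30 between jejunum and colon and -2.02 between ileum and colon. *Sdhb* of complex II differed by -1.39 between duodenum and ileum and -1.50 between duodenum and colon.

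Between duodenum and colon the difference was -2.93 for *Ndufab1*, -1.74 for *Cox7a2*, -1.63 for *Uqcrq* and -1.61 for *Cox7b*. Between jejunum and colon it was -3.05 for *Ndufb4*, -2.29 for *Ndufb2*, -2.17 for *Cox7a2*, -2.07 for *Ndufb6* and -1.97 for *Ndufaf4*. In the same pair it was -1.80 for *Ndufv2*, -1.80 for *Uqcrq*, -1.76 for *Cox7b*, -1.71 for *Ndufc2*, -1.60 for *Ndufb9* and -1.34 for *Cox6b1*.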

How the results depend on the processing

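No paired analysis was run, because the labels do not name the mouse of each library. A block on the library numbers, which follow accession order, was not fitted. Of 136 sort differences of named members 30 changed sign under at least 1 setting, among them *mt-Nd1*, *mt-Cytb* and *mt-Co1* in the colon, and none of the 30 was called in the reported fit or with the other sign. The causes of the changes below were not tested. Members lower in positive cells of the duodenum numbered 54, against 87 with total nuclear counts and no TMM, 17 with total counts of all genes and 27 at an adjusted p of 0.01. In the ileum they numbered 27, against 78 with total nuclear counts, 49 with at least 10 counts in every library, 10 without the libraries numbered 3 and 14 at an adjusted p of 0.01. In the colon the 1 lower member became 0 with TMM over all genes, total counts of all genes, no filter, without the libraries numbered 3 and at an adjusted p of 0.01, and 2 with RLE factors, DESeq2, at least 10 counts in every library or the i5 index as covariate. The 1 higher member became 0 in the jejunum with total nuclear counts, no filter, at least 10 counts in every library, without the libraries numbered 3 and at an adjusted p of 0.01. It became 0 in the ileum with total nuclear counts, and in the colon with total counts of all genes, the region's libraries alone, without the libraries numbered 3 and at an adjusted p of 0.01. The joint interaction count of 21 became 33 with TMM over all genes, 61 with total nuclear counts, 9 with total counts of all genes, 36 with DESeq2, 33 with no filter, 34 with at least 10 counts in every library, 36 without the libraries numbered 3 and 7 at an adjusted p of 0.01. Between regions 54 members were called in positive cells, against 84 with total nuclear counts, 29 with total counts of all genes and 32 at an adjusted p of 0.01. In negative cells 11 were called, against 21 with TMM over all genes, 5 with total nuclear counts, 6 with total counts of all genes, 27 with DESeq2, 21 with no filter, 18 with at least 10 counts in every library, 38 with the i5 index as covariate, 42 without the libraries numbered 3 and 3 at an adjusted p of 0.01. The comparison without the libraries numbered 3 was chosen after seeing the data.

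Leaving out each library in turn gave 34 to 66 lower members in the duodenum (34 without negative library 2), 46 to 64 in the jejunum, 10 to 30 in the ileum (10 without negative library 3, 16 and 17 without positive libraries 3 and 2) and 0 to 2 in the colon. Higher members ranged from 0 to 1 in jejunum, ileum and colon. The joint interaction count ranged from 11 (without colon positive library 3) to 36 (without jejunum positive library 3), with 12 without jejunum negative library 1 and 13 without jejunum positive library 1 or 2 or colon negative library 1. Calls between regions ranged from 35 (without colon positive library 3) to 60 in positive cells and from 5 (without duodenum negative library 2) to 26 (without ileum negative library 3) in negative cells. The log2 ratio difference ranged from -0.54 to 0.19 in the duodenum, -0.32 to 0.49 in the jejunum, -0.70 to 0.03 in the ileum and -0.15 to 0.51 in the colon. In each region its sign thus turned with the library left out, in an unpaired comparison. By library number the ileum ratio was lower in the positive library each time. With few reads, the smallest members are limited by depth.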
